A study of Mus musculus with 22 samples.

Results

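Peripheral myelin and Schwann cell genes were followed in whole spinal cord of aging and SOD1-G93A mice. The set had 7 members, Pmp22, Prx, Pmp2, Ncmap, Egr2, Cldn19 and Drp2, which were chosen by name as genes of peripheral nerve, and all 7 were among the 21995 genes measured. All mice were on the C57BL/6 background and each spinal cord, extruded in cold phosphate-buffered saline, gave 1 RNA-seq library. For aging, 8 young wild-type mice at 3–4 months were compared with 8 old wild-type mice at 18–24 months. All of these mice were male and had no transgene, and their libraries were made with the Roche KAPA HyperPrep kit. For ALS, 3 mice carrying the high-copy human SOD1 transgene with the G93A mutation, which have motor neuron disease, were compared with 3 wild-type control mice, labelled 5–6 months in both groups and prepared with the Illumina TruSeq kit. The transgene was present throughout the animal and not in 1 cell type. Both ALS groups held females and a male, and sex is not given for each library.

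Schwann cells make the myelin of peripheral nerve, including the nerve roots that leave the cord, whereas oligodendrocytes make the myelin of the cord itself. The transcription factor EGR2, also called KROX20, switches on the genes of compact peripheral myelin in Schwann cells, together with SOX10. Periaxin (Prx) ties dystrophin-related protein 2 (Drp2) and dystroglycan to the outer face of the myelin sheath, and Cldn19 seals the sheath with tight junctions. A cord taken with short pieces of root will therefore hold Schwann cell RNA, which makes these genes useful to read library by library. Pmp22, Drp2 and Egr2 are also made outside the nerve, Pmp22 in many tissues, Drp2 in brain and Egr2 in immune cells.

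The promoters below are shown because Prx, Cldn19 and Pmp22 had their highest level in CPM in the same old and the same SOD1-G93A library, as described further on, and because Egr2 is the factor that acts on such genes. For Pmp22 that old library was barely the highest, at 144.7 CPM against 143.9 CPM in the next. Drp2 was also highest in both libraries, but no start of it was given. RefSeq gave 14 transcription start sites for 5 of the 7 members on GRCm38.p6. The 150 bases before each start were searched on both strands for the letters GTGGGNG, the core that EGR factors bind, and ACAANG, a core of SOX factors. No window of the members held both. Capitals mark the EGR match.
Prx, chr7:27499174-27499323, plus strand: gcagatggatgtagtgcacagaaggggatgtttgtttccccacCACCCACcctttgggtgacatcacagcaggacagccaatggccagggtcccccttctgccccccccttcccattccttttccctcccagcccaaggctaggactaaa
Cldn19, first start, chr4:119255291-119255440, plus strand: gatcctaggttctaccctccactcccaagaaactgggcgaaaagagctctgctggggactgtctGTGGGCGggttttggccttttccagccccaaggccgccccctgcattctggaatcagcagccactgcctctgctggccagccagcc
Pmp22, most upstream start, chr11:63128832-63128981, plus strand: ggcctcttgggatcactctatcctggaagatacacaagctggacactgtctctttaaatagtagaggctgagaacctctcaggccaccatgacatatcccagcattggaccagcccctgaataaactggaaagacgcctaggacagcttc
Pmp22, next start, chr11:63131307-63131456, plus strand: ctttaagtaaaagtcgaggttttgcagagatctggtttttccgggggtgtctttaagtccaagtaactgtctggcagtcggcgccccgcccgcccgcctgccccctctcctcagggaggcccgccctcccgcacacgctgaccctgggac
The match began 107 bases before the start of Prx, on the minus strand, and 86 bases before the first start of Cldn19. It was found at 4 of the 14 starts of the members, of which 2 are neighbouring Cldn19 starts that share 1 match. The same letters occurred in 6575 of the 32851 mouse promoter windows of this length, and ACAANG, found at 1 of the 14 starts (Egr2), in 7564 of them. None of the 4 Pmp22 starts held GTGGGNG in its window. A match is a description of the letters and not a site. Pmp22 is known to be read from its upstream start in Schwann cells and from later starts in many tissues, and counts per gene cannot tell these starts apart.

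Libraries held between 5078092 and 9358055 counts in the young, 5664869 and 9145600 in the old, 10693060 and 13219797 in the control and 9675610 and 11872431 in the SOD1-G93A group. Levels are given as CPM, each gene's counts scaled to a common library size, and 3 counts were taken as the floor of detection, for counting error only. Libraries are numbered within a group in the order of the table, as names without an order. To place each library before the members are described, genes with at least 10 counts and at least 3 times the next highest CPM of the same experiment were counted. Old library 5 had 5 such genes, among them Prx, and SOD1-G93A library 1 had 31, among them Prx, Cldn19, Pmp2 and Dhh. The other libraries had from 0 to 10, and none of those was on a Schwann cell list. Among the 4 Y-linked genes Ddx3y, Kdm5d, Eif2s3y and Uty, SOD1-G93A library 1 held 2673 counts and control library 3 held 2383, against at most 12 in the other ALS libraries. SOD1-G93A library 1 therefore held the Y-linked counts of its group, and in that group sex and the features of this library cannot be told apart. Every young and old library held at least 692 such counts.

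Prx encodes periaxin. Its counts were 7, 4, 16, 1, 4, 3, 0 and 11 in young mice and 5, 12, 3, 6, 119, 4, 6 and 10 in old mice. Old library 5 reached 17.4 CPM, against 0.904 ± 0.487 CPM (SD, n = 7) in the rest of the old group and 0.726 ± 0.704 CPM (SD, n = 8) in the young group. The groups overlapped, and Prx did not pass the filter on low counts in aging. In an edgeR fit without the filter the log2 fold change was 1.95 (edgeR adjusted p = 0.062), and without old library 5 it was 0.27 (edgeR adjusted p = 0.763). The call depended on the processing, since DESeq2 gave 0.25 (DESeq2 adjusted p = 0.783) and scaling to central myelin genes gave 2.05, which passed (edgeR adjusted p = 0.0419). With library 5 kept, it passed when young library 3 or old library 1, 3, 4 or 6 was left out (edgeR adjusted p from 0.0315 to 0.0477). In ALS the counts were 16, 6 and 15 in control mice and 247, 9 and 16 in SOD1-G93A mice. Library 1 reached 20.9 CPM, and the other SOD1-G93A libraries, at 0.906 and 1.43 CPM, lay within the control range of 0.505 to 1.52 CPM. The log2 fold change of 2.89 did not pass the test (SE 1.11, edgeR adjusted p = 0.073), and without library 1 it was 0.17 (edgeR adjusted p = 0.855). Without library 2 it was 3.41 and passed (edgeR adjusted p = 0.00778). No group difference in Prx was detectable at this depth once that library was set aside in either experiment. The gene lies on chromosome 7, 27499324 to 27520214 of GRCm38, and overlaps the antisense gene Gm15541, which is not in the table.

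**Figure D1:**
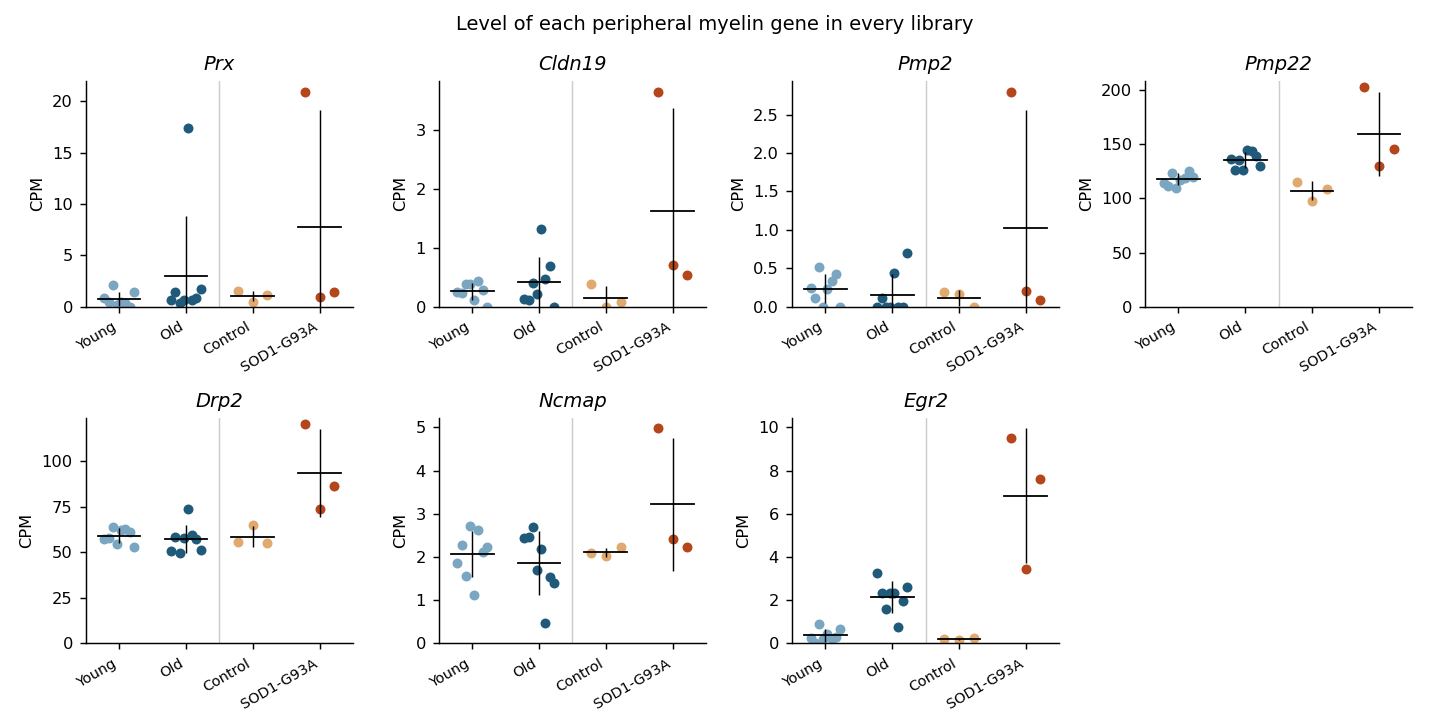
Level in CPM (vertical axes, each from 0) of the 7 members in every library, with young and old mice left of the grey line and control and SOD1-G93A mice right of it. Points are libraries, horizontal lines are group means and vertical lines are 1 SD, cut at 0. Prx shows 1 high library in the old group (17.4 CPM) and 1 in the SOD1-G93A group (20.9 CPM), whereas Pmp22 and Drp2 are present in every library.

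Cldn19 encodes claudin-19, the tight junction protein of the Schwann cell sheath. It had between 0 and 4 counts in young mice and 1, 1, 3, 2, 9, 3, 5 and 0 in old mice, with the highest value again in old library 5. Most of these libraries lay at or under the floor of 3 counts, and no difference was detectable at this depth (log2 fold change 0.64 without the filter, edgeR adjusted p = 0.463). In control mice the counts were 4, 0 and 1, and in SOD1-G93A mice 43, 7 and 6. All 3 SOD1-G93A libraries lay above all control libraries. The gene did not pass the filter, and in the fit without it the log2 fold change was 3.43 (edgeR adjusted p = 0.0279). Without library 1 the change was 2.03 and no longer passed (edgeR adjusted p = 0.207), nor did it pass without control library 2 or 3 (edgeR adjusted p = 0.0933 and 0.105).

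Pmp2, the fatty acid binding protein of peripheral myelin, had few counts in most libraries. Its counts were 2, 1, 4, 0, 2, 3, 3 and 0 in young mice and 0, 1, 0, 0, 3, 0, 0 and 4 in old mice, and both groups were close to or under the floor. The fit without the filter gave a log2 fold change of -0.72 (edgeR adjusted p = 0.541). In ALS the counts were 2, 2 and 0 in control mice and 33, 2 and 1 in SOD1-G93A mice. Library 1 alone was above the floor. The fit without the filter gave 3.09 (edgeR adjusted p = 0.0993), 0.30 without library 1 (edgeR adjusted p = 0.924) and 3.56 without library 2 (edgeR adjusted p = 0.0186). Against a control group at the floor, the group mean was at least 4.02-fold higher, but this bound was set by library 1, and the lowest SOD1-G93A library was itself under the floor. Pmp2 shares part of its position, chromosome 3, 10179851 to 10183929, with Gm37389 on the same strand, which had 0 counts in every library.

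The 3 genes of the Schwann cell sheath thus had their highest SOD1-G93A level in the same library, at 17.9 times the mean of the other SOD1-G93A libraries for Prx and 5.87 times for Cldn19, while Pmp2 was above the floor there alone. In old library 5, Prx was 19.2 times the mean of the other old libraries. Genes known from nerve connective tissue and Schwann cells also stood out in SOD1-G93A library 1, namely Ogn with 20.1 CPM against at most 2.95 CPM in any other ALS library, Col28a1 with 3.39 against 0.569 CPM and Cdh1 with 1.69 against 0.302 CPM. These 3 genes, and Fkbp5, were picked once the values were known. The library also stood apart in genes of other kinds, such as Fkbp5, a target of the glucocorticoid receptor, with 176 against at most 55.2 CPM.

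**Figure D2:**
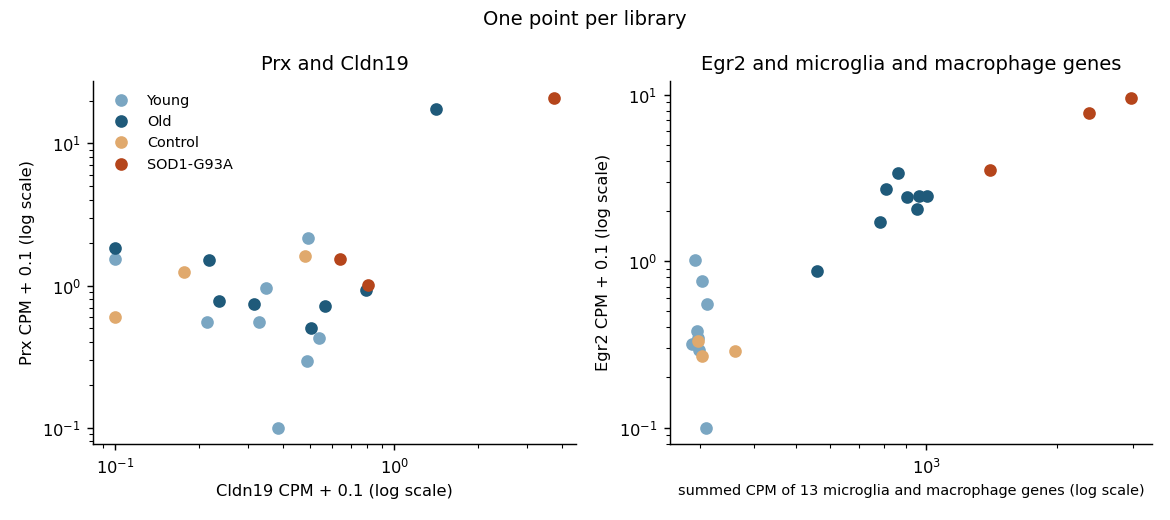
Left, Prx against Cldn19, and right, Egr2 against the summed level of 13 microglia and macrophage genes, 1 point per library coloured by group, with CPM on log axes (0.1 added to Prx, Cldn19 and Egr2). Old library 5 and SOD1-G93A library 1 lie alone at the upper right on the left, whereas on the right the libraries are ordered by group, from young and control at the lower left to SOD1-G93A at the upper right.

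Ncmap encodes a small membrane protein of the non-compact parts of peripheral myelin. It ranged from 1.13 to 2.72 CPM with a median of 2.17 in young mice and from 0.463 to 2.69 CPM with a median of 1.95 in old mice. The groups overlapped and the log2 fold change of -0.12 did not pass the test (SE 0.25, edgeR adjusted p = 0.779). In control mice Ncmap had 2.09, 2.02 and 2.23 CPM, and in SOD1-G93A mice 5.00, 2.42 and 2.24 CPM. The SOD1-G93A libraries lay above the control libraries, by very little in library 3. The log2 fold change of 0.61 did not pass (SE 0.36, edgeR adjusted p = 0.217), and without library 1 it was 0.14 (edgeR adjusted p = 0.796). Unlike Prx, Ncmap was at 2.19 CPM in old library 5, within the range of its group.

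Pmp22, a membrane protein of compact myelin whose dosage causes inherited neuropathy in humans, was the most abundant member. It ranged from 109 to 126 CPM with a median of 118 in young mice and from 126.3 to 144.7 CPM with a median of 136 in old mice. Every old mouse was above every young mouse. The mean rose from 117 ± 5.53 to 135 ± 7.21 CPM (SD, n = 8 each), a log2 fold change of 0.20 (SE 0.042, edgeR adjusted p = 0.000934). An exact two-sided permutation test gave p = 0.000155, the smallest it can give with 8 against 8. The other old libraries were at 134 ± 6.59 CPM (SD, n = 7) when library 5 was set aside, 1.14 times the young mean.

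In control mice Pmp22 had 115, 97.7 and 109 CPM, and in SOD1-G93A mice 203, 130 and 146 CPM. All 3 SOD1-G93A libraries lay above all control libraries, and library 1 was the highest. The mean rose from 107 ± 8.92 to 159 ± 38.5 CPM (SD, n = 3 each), a log2 fold change of 0.57 (SE 0.16, edgeR adjusted p = 0.0232). With 3 against 3 the exact permutation test cannot go below 0.1. Without library 1 the change was 0.37 and still passed (edgeR adjusted p = 0.0346). Without control library 1, 2 or 3 or SOD1-G93A library 3 it kept its direction and did not pass (edgeR adjusted p = 0.0518, 0.0927, 0.0716 and 0.0518). In the bulk cord, more cells of a type and more RNA per cell cannot be told apart, for Pmp22 or for any gene here. Pmp22 lies on chromosome 11, 63128982 to 63159547, and overlaps no other annotated gene.

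Drp2 encodes the dystrophin-related protein that periaxin binds. It ranged from 53.0 to 64.0 CPM with a median of 59.6 in young mice and from 49.8 to 73.7 CPM with a median of 57.8 in old mice. Old library 5 held the 73.7 CPM, above all young mice, while the other old libraries had a mean of 55.1 ± 4.24 CPM (SD, n = 7). The groups overlapped, and the log2 fold change of -0.05 did not pass (SE 0.068, edgeR adjusted p = 0.664). Drp2 thus rose above its group in the library that was highest for Prx, by 18.6 CPM or 1.34 times the mean of the other old libraries.

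In control mice Drp2 had 55.6, 65.2 and 55.1 CPM, and in SOD1-G93A mice 120, 73.9 and 86.7 CPM. The groups did not overlap. The mean rose from 58.7 ± 5.72 to 93.7 ± 24.0 CPM (SD, n = 3 each), a log2 fold change of 0.68 (SE 0.17, edgeR adjusted p = 0.0153). Without SOD1-G93A library 1 it was 0.46 and still passed (edgeR adjusted p = 0.0198), and it did not pass without control library 1 or 3 (edgeR adjusted p = 0.0589 and 0.0644). Drp2 is on the X chromosome, 134404551 to 134456573.

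Egr2, the transcription factor, was higher in both experiments. Its counts were 2, 0, 7, 1, 4, 2, 2 and 5 in young mice and 24, 20, 12, 22, 16, 5, 14 and 15 in old mice. Old mice were higher except that old library 6, with 5 counts, lay within the young range. The mean was 0.370 ± 0.290 CPM in young and 2.16 ± 0.737 CPM in old mice (SD, n = 8 each), with an exact two-sided permutation p = 0.000311. Egr2 did not pass the filter on low counts, and in the fit without it the log2 fold change was 2.49 (edgeR adjusted p = 2.88e-05). Old library 5 was at 2.33 CPM, close to the mean of its group.

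In control mice Egr2 had 2, 2 and 3 counts, at or under the floor, while the SOD1-G93A libraries held 112, 34 and 85. Egr2 was called higher (edgeR adjusted p = 0.000339), and was also called without library 1 (edgeR adjusted p = 0.000319). Egr2 entered the test through the SOD1-G93A libraries alone, so these calls are no support. Its SOD1-G93A mean of 6.84 ± 3.11 CPM (SD, n = 3) was at least 26.7-fold higher than the floor of the control group, and its lowest library at least 13.4-fold higher. Egr2 lies on chromosome 10, 67535475 to 67542188.

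Genes of microglia and macrophages were also higher in the groups with more Egr2. The summed level of the 13 microglia and macrophage genes was 288 to 312 CPM in young, 559 to 1005 CPM in old, 298 to 361 CPM in control and 1407 to 2959 CPM in SOD1-G93A mice. Old library 6, with the lowest Egr2 of the old group, also had the lowest sum of that group, but old library 8, with the second highest Egr2 (2.62 CPM), had a sum of 806 CPM, among the lower ones, and young library 3, with the highest Egr2 of its group (0.908 CPM), had 293 CPM. In SOD1-G93A libraries 1, 3 and 2 the sums were 2959, 2376 and 1407 CPM and Egr2 was 9.49, 7.61 and 3.42 CPM, an order that Prx, at 20.9, 1.43 and 0.906 CPM, also had. Of all genes tested, 13.5% were higher in old and 18.4% in SOD1-G93A mice. Of the 13 microglia and macrophage genes, 12 were higher in old and 11 in SOD1-G93A mice, with none lower, for example Cd68 (log2 fold change 3.20 and 4.45) and C1qa (2.09 and 3.59). Of the 13, 2 had 0 counts in young library 8 and 1 had 0 counts in control library 2. Genes that low passed the filter only with libraries of the high group, so their part in these counts is no support. The part of these cells in the level of Egr2 was not tested.

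Counted over the set, 3 of the 7 members passed the filter in aging. Of these, 1 was higher (Pmp22), 0 were lower and 2 did not pass the test, where 13.5% of all 13647 genes tested were higher and 12.9% lower. In ALS 5 of the 7 passed the filter. Of these, 3 were higher (Pmp22, Drp2 and Egr2), 0 were lower and 2 did not pass, where 18.4% of all 14386 genes tested were higher and 15.5% lower. Egr2 entered through its high group alone and had to differ, so its place in these counts is no support, and nothing is read from them beyond Pmp22 and Drp2. With a fold change over 1 log2 unit as well, 0 members were called in aging and 1 in ALS (Egr2), where 2.18% and 8.5% of all genes were called higher and 0.044% and 1.2% lower. Groups did not overlap for Pmp22 in aging, as for 3.66% of all genes tested in that direction and 1.66% in the other, and for Pmp22, Drp2, Ncmap and Egr2 in ALS, as for 25.7% and 24.7%. The number higher in ALS ranged from 1 to 4 when each library was left out in turn.

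**Figure D3:**
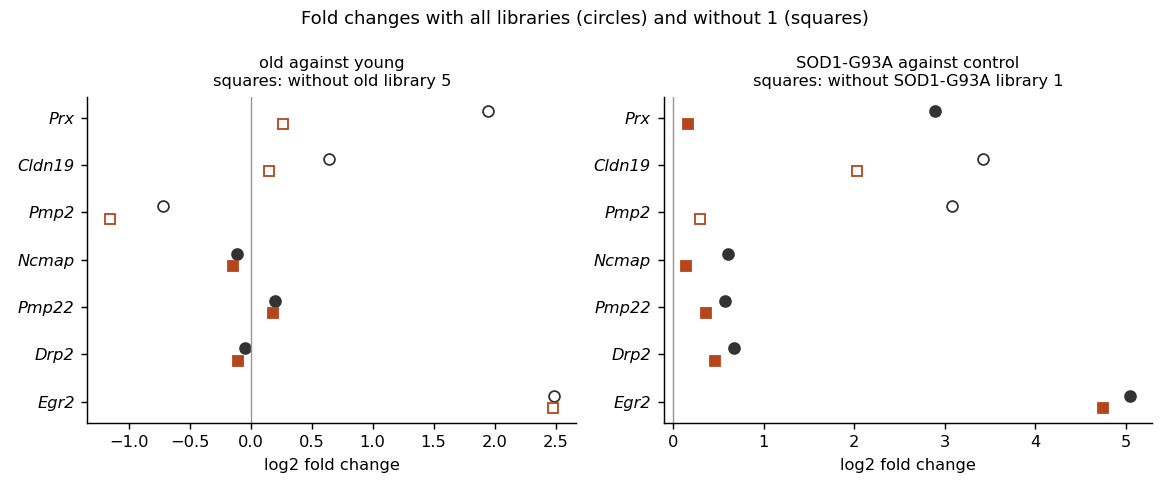
Log2 fold change of each member (horizontal axes) in old against young mice, left, and SOD1-G93A against control mice, right, with all libraries (circles) and without old library 5 or SOD1-G93A library 1 (squares). Filled symbols are genes that passed the filter on low counts and open symbols come from fits without it. The change of Prx moves from 1.95 to 0.27 and from 2.89 to 0.17 when the library is left out. In ALS the change of Pmp22 moves from 0.57 to 0.37 and that of Drp2 from 0.68 to 0.46, and every member stays above 0.

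Sex differed within the ALS groups. When only the libraries with few Y-linked counts were compared, 2 in each group, Pmp22 had 115 and 97.7 CPM in control against 130 and 146 CPM in SOD1-G93A mice (log2 fold change 0.37, edgeR adjusted p = 0.0984), and Drp2 had 55.6 and 65.2 against 73.9 and 86.7 CPM (0.41, edgeR adjusted p = 0.0825). Egr2 had 2 and 2 against 34 and 85 counts (edgeR adjusted p = 0.00412). Egr2 entered this fit through the SOD1-G93A libraries alone, so its p is no support. Pmp22 and Drp2 did not overlap between these libraries and did not pass the test with so few. Prx was at 1.52 and 0.505 CPM in control and 0.906 and 1.43 CPM in SOD1-G93A mice. The comparison of these libraries was added after the data were seen.

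The change in ALS was set against the change in aging in 1 edgeR fit of all libraries, in which the kit and the experiment coincide. It bears on whether a member changed by the same amount in both settings. For Drp2 the change in ALS exceeded that in aging by 0.70 on the log2 scale (SE 0.16, edgeR adjusted p = 0.00192). For Pmp22 the excess was 0.34 (edgeR adjusted p = 0.0407), and it did not pass without SOD1-G93A library 1 (0.12, edgeR adjusted p = 0.420) or control library 2 or 3 (edgeR adjusted p = 0.139 and 0.0645). Egr2 passed as well (edgeR adjusted p = 0.0176), but not without that library (edgeR adjusted p = 0.0578), and no size is given because its control group lay at the floor. It passed the filter only through libraries of the old and SOD1-G93A groups, where it was high, so this test is no support. Ncmap (0.70, edgeR adjusted p = 0.266) and Prx (0.90, edgeR adjusted p = 0.703) did not pass. Of the 14502 genes tested in this way, 11.6% changed more positively and 14.2% more negatively in ALS.

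Compared per length, as FPKM, the medians of young, old, control and SOD1-G93A mice were 63.5, 70.7, 59.7 and 81.4 for Pmp22 and 8.49, 7.97, 7.92 and 12.9 for Drp2. They were 1.38, 1.45, 1.62 and 1.48 for Ncmap, and 0.135, 0.965, 0.12 and 2.51 for Egr2. Prx (0.1, 0.165, 0.21 and 0.31), Cldn19 (0.09, 0.07, 0.02 and 0.33) and Pmp2 (0.165, 0, 0.11 and 0.14) were also low. Pmp22 was thus the highest and Drp2 the next in every group, while the order of Prx, Cldn19 and Pmp2 lay within their counting error.

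Whether the members rise and fall together was tested over the 16 young and old libraries, with the group mean removed, for the 3 pairs that passed the filter. Drp2 and Pmp22 gave Pearson r = 0.46 (permutation p = 0.0898, adjusted over the 3 pairs 0.269) and Spearman rho = 0.44 (permutation p = 0.0941, adjusted 0.242), and r = 0.36 without the 2 libraries farthest from the median. Ncmap had r = -0.33 with Pmp22 (adjusted permutation p = 0.381, rho = -0.27, adjusted 0.332) and r = -0.21 with Drp2 (adjusted permutation p = 0.474, rho = -0.38, adjusted 0.242). No pair passed. When libraries were scaled to their central myelin genes, Drp2 and Pmp22 gave r = 0.79 (adjusted permutation p = 0.00168). Both genes were then divided by the same sum in each library. This can make them correlate by itself, the permutation does not remove it, and nothing is read from this value. The non-member genes with the profile most like the mean of these members over the same 16 libraries, among 13644 compared, were Ccdc163 (r = 0.82), Fam78a (0.80), Brsk1 (0.78), Col6a1 (0.72), Adamts9 (0.71), Bcar3 (0.71), Rcan1 (0.69), Shisa3 (0.68), Pqlc1 (0.68) and Psmb10 (0.68). Over the 6 ALS libraries, with the group mean removed in the same way, r with the mean of these members was 0.99 for Ccdc163, 0.96 for Adamts9, 0.78 for Bcar3 and 0.63 for Pqlc1, and from -0.68 to 0.30 for the other 6 genes. Pmp22, Drp2 and Ncmap were all highest in SOD1-G93A library 1, at 203, 120 and 5.00 CPM. A gene that is also high in that library can therefore reach a high r over the ALS libraries by that library alone. These correlations share libraries and depth and are a description.

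Other Schwann cell and peripheral nerve myelin genes were measured as a list of 24. Of 20 tested in aging 3 were higher and 4 lower, and of 21 tested in ALS 8 were higher and 2 lower. Of all genes tested, 13.5% were higher and 12.9% lower in aging, and 18.4% and 15.5% in ALS. The counts of this list and of those below stand beside these shares, and no list was tested as a set. Lgi4, a secreted signal for myelination that glia of the cord also make, rose in both (log2 fold change 0.49 and 1.08, edgeR adjusted p = 6.4e-06 and 0.000173). Mal, a proteolipid of both myelins, fell in old mice by 0.52 on the log2 scale. The integrin gene Itga6 rose in ALS (0.95), its partner Itgb4 fell in both (-0.25 and -0.40), and Plekhb1 rose in old mice (0.30).

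The markers on that list that are most particular to Schwann cells did not share 1 pattern. Gldn, the gliomedin of peripheral nodes, was at 2.18, 1.85 and 2.31 CPM in control and 9.66, 3.32 and 4.48 CPM in SOD1-G93A mice (log2 fold change 1.47, edgeR adjusted p = 0.022), and at 1.46 CPM in old library 5, within its group. Cdh19 fell in old mice (-0.27, edgeR adjusted p = 0.0387) and was lowest, at 13.3 CPM, in old library 5, the library with the highest Prx of the aging experiment. In SOD1-G93A mice it had 77.4, 39.1 and 48.5 CPM against 27.1, 38.9 and 44.2 CPM in control mice and did not pass. Dhh, the hedgehog signal of Schwann cells, was at 0 to 2 counts in young mice and reached 10 counts in old library 5 and 35, 4 and 11 counts in the SOD1-G93A libraries. Scn7a was at 8.98, 4.43 and 1.97 CPM in SOD1-G93A mice and 4.93, 7.58 and 4.46 CPM in control mice. In old library 5, high Prx thus came without high Gldn or Cdh19.

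Regulators of Schwann cell differentiation around EGR2 were a list of 14. Of 13 tested in aging 5 were higher and 4 lower, and of 14 in ALS 5 were higher and 1 lower. Adgrg6, the receptor that starts peripheral myelination, rose in both (0.55 and 1.19), as did Erbb2 (0.73 and 0.96) and Nab2, a co-regulator of EGR factors (0.27 and 0.86). Erbb3, the neuregulin receptor of glia, fell in old mice (-0.49), and Nrg1, its ligand, fell in both (-0.24 and -1.02). Tead1, a partner of YAP, rose in ALS (1.16). Genes of repair and immature Schwann cells, a list of 14, gave 1 higher and 4 lower of 12 in aging and 4 higher and 2 lower of 12 in ALS. Ngfr rose in old mice (0.70), Fabp7 and Sox2, which astrocytes and progenitors also make, rose in ALS (2.70 and 0.81), and L1cam fell in both (-0.28 and -0.49).

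Partners of Prx and Drp2 in the dystroglycan complex were a list of 16 that includes both members. In aging 1 of 14 was higher and 3 lower, and in ALS 6 of 15 were higher and 1 lower. Drp2 is among the 6, and Dag1, Utrn and Lama2 are also on the list of other Schwann cell genes. Dag1, the gene of dystroglycan, rose in ALS (0.56, edgeR adjusted p = 0.0125) together with Drp2. Utrn, the dystrophin relative that shares the Schwann cell membrane, fell in both (-0.16 and -0.33). Ezr, which links membrane to actin, rose in both (0.60 and 1.81).

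**Figure D4:**
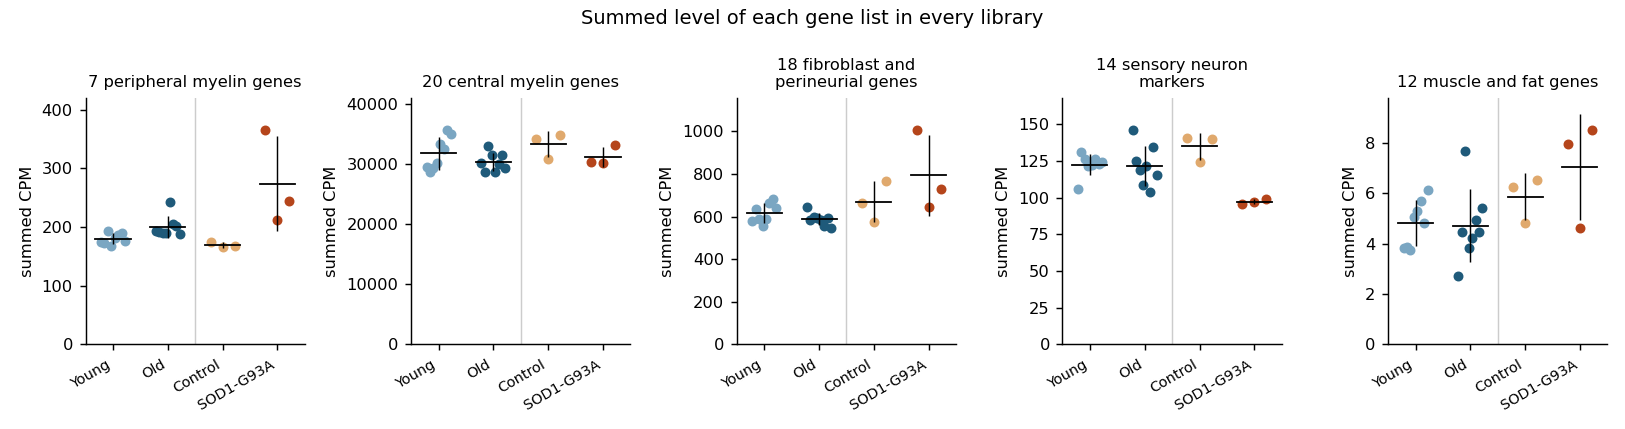
Summed CPM (vertical axes, each from 0) of the members and of 4 other gene lists in every library, by group. Points are libraries, horizontal lines group means and vertical lines 1 SD. Old library 5 (242 CPM) and SOD1-G93A library 1 (365 CPM) are the highest of their groups for the members, while central myelin lies between 28606 and 35660 CPM throughout.

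The summed level of the 7 members was 167 to 193 CPM in young mice, 188 to 242 CPM in old mice, 166 to 175 CPM in control mice and 365, 211 and 244 CPM in SOD1-G93A mice, most of it Pmp22 and Drp2. The 20 central myelin genes summed to between 28606 and 35660 CPM over all libraries, so the labelled tissue was seen in each. Of these 20, 2 were higher and 10 lower in aging, and 2 higher and 5 lower in ALS. Ugt8a, which makes the myelin lipid galactosylceramide, fell in both (-0.77 and -0.82), and Cldn11 fell in old mice (-0.23) and rose in ALS (0.71). Spinal cord and motor neuron genes were lower for 3 of 13 in aging and 8 of 13 in ALS, with 0 higher.

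Lists of sensory neuron (dorsal root ganglion) markers and of fibroblast and perineurial genes were also read in old library 5 and SOD1-G93A library 1. In old library 5, Ptgds, Slc2a1 and Pdgfra held 263, 174 and 54.8 CPM of the fibroblast sum. Small changes in the other fibroblast genes would therefore not show in that sum. The 14 sensory neuron markers measured summed to 122 CPM in old library 5, within the old range of 104 to 146 CPM, and to 95.9 to 99.1 CPM in SOD1-G93A against 124 to 141 CPM in control mice. Of 6 tested in aging 0 were called, and of 8 in ALS 1 was higher (Avil, 2.59, with 3.47, 2.12 and 4.21 CPM in the 3 SOD1-G93A libraries) and 2 lower (Prph, -0.66, and Calca, -0.73). With a change of that size, Avil passed the filter only through the SOD1-G93A libraries, so its call is no support. Scn10a, a sodium channel of pain neurons, had 0 counts in every SOD1-G93A library and in old library 5, and Isl1 was at 1.61 and 2.19 CPM in SOD1-G93A library 1 and old library 5. The 18 fibroblast and perineurial genes summed to 1006 CPM in SOD1-G93A library 1, against 646 and 728 CPM in the other SOD1-G93A libraries and 576 to 768 CPM in control mice, and to 584 CPM in old library 5, within its group. Of 14 tested in aging 2 were higher and 1 lower, and of 15 in ALS 2 were higher (Col1a1, 1.35, and Abca9, 1.26) and 0 lower. Dcn, a matrix proteoglycan of fibroblasts, was at 23.3 CPM in SOD1-G93A library 1 and at most 11.6 CPM in the other ALS libraries, and Lum at 2.97 against at most 2.69 CPM. In old library 5, Lum was at 2.188 CPM, the highest of all young and old libraries, with young library 8 next at 1.831 CPM. Col1a1, at 10.65 CPM, was the highest of the old group there, but young library 5 had 11.42 CPM. Dcn was at 12.98 CPM, under the 13.57 CPM of old library 6, and Dpt, at 0.2917 CPM, was the lowest of its group. These genes of old library 5 were picked once the values were known. The part of nerve root tissue in the values of either library was not tested.

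The remaining lists were those of other cells the cord can hold. The 12 muscle and fat genes summed to at most 8.5 CPM in any library, with Acta1 at 0.17 to 1.75 CPM and Ckm at 0 to 0.81 CPM. The only one tested in aging, Car3, fell (-1.08, edgeR adjusted p = 0.00366), and 0 of 2 were called in ALS. Astrocyte genes were higher for 4 and lower for 1 of 9 in aging and higher for 6 of 9 in ALS, with 0 lower. Endothelial and mural genes gave 2 higher and 3 lower of 11 in aging and 2 higher and 2 lower in ALS, and 0 of 5 red blood cell genes were called in either.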

How the data were processed

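Levels were read from bulk RNA-seq of whole mouse spinal cord. RNA was taken with TRIzol and a Qiagen kit, and per the study's methods reads were aligned with STAR, summarized with RSEM and handled with SAMtools 1.3 on the mm10 genome. The authors deposited expected counts from RSEM, not normalized between libraries and already whole numbers, for 21995 genes. They also deposited log2(FPKM + 1), the log2 scale of fragments for a common transcript length and depth. Whether counting used strand is not given in the sources used here. Gene symbols and positions were taken from GENCODE M21 (GRCm38), which held 21919 of the genes, and promoters from RefSeq.

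Columns name the group and not the replicate, and p-values measure the spread between these libraries. Each comparison was fitted alone in edgeR 4.0.16 with R 4.3.3: filterByExpr (minimum count 10, minimum total 15), TMM factors and the quasi-likelihood test, with p adjusted by Benjamini-Hochberg across the genes that passed the filter and called under 0.05. CPM used the TMM library sizes. FPKM was recovered from the deposited log2 values. Genes that did not pass the filter were described by counts and by a fit without it. Permutation tests were exact for group differences, and used 100000 draws within groups, at a prior count of 2, for correlations. On simulated data with 200 genes changed by 1.5 log2 units, these steps recovered 100% in the aging design, among 13647 genes, and 99.5% in the ALS design, among 14386 genes. Of the simulated calls, 6.54% in the aging design and 4.78% in the ALS design were false. Every simulated gene had the same dispersion, no library stood apart, and the change exceeded those of Pmp22 and Drp2. The recovery therefore does not give the power for the members. Alternatives were DESeq2 1.42.0, RLE, upper-quartile, total-count and central myelin scaling, other filters, 1 fit of all groups, limma 3.58.1 on FPKM with pseudocounts of 1 and 0.1, and each library left out. The genes named were the members, up to 5 genes of each list that passed with the lowest adjusted p, fixed markers of Schwann cells, sensory neurons, fibroblasts and muscle, and the 10 genes most like the members. Some genes of the lists are counted in them and not reported here by name. The members and lists were chosen with earlier results of these data known.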

Additional observations from a re-analysis of the deposited data

Results flagged for a closer look

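Within a group of 8, a library far from the others is expected by chance in about 1 in 20 groups, and 14 sets of 1 member in 1 group were examined, of which 2 stood out. In old mice, library 5 stood apart for Prx (17.4 CPM) and Drp2 (73.7 CPM), both values from the same library. Groups of 3 were not examined in this way.

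The change in SOD1-G93A mice differed from the change in old mice, by a test of the difference in edgeR, for Drp2 (0.70 on the log2 scale), Pmp22 (0.34) and Egr2 (2.49). The value for Egr2 depends on the prior count, since the control group lay at the floor, and is no measure of size. Egr2 passed the filter only through its high groups, so its test is no support either. Drp2 passed this test with each ALS library left out, with differences of 0.46 to 0.83. Without SOD1-G93A library 1, Pmp22 (0.12) and Egr2 (2.17) did not pass it, and Pmp22 also did not pass without control library 2 or 3.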

How the results depend on the processing

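Without any one of the young or old libraries, Pmp22 stayed higher in old mice (log2 fold change 0.19 to 0.22, edgeR adjusted p at most 0.00298), while Ncmap ranged from -0.22 to 0.021, above 0 without old library 6. Ncmap was 0.070 and 0.097 in limma on FPKM, and Drp2 was 0.017 when libraries were scaled to central myelin genes. The number of members higher in old mice was 2 in the fit of all groups and 2 with no filter, Egr2 then being included. In SOD1-G93A mice, leaving out each library gave 1 to 4 members higher and log2 fold changes of 0.37 to 0.71 for Pmp22, 0.46 to 0.83 for Drp2 and 0.17 to 3.41 for Prx. Prx passed without SOD1-G93A library 2 (edgeR adjusted p = 0.00778), with central myelin scaling (3.02) and in the fit of all groups (2.85), always with library 1 present. With the libraries of few Y-linked counts only, Pmp22 (0.37) and Drp2 (0.41) did not pass and Pmp2 was -0.30. The difference between the comparisons ranged from 0.12 to 0.46 for Pmp22, from 2.17 to 2.79 for Egr2 and from -1.83 to 1.41 for Prx, and for Pmp22 was 0.41 and did not pass with central myelin scaling. Without both old library 5 and SOD1-G93A library 1, a choice made after seeing the data, it was 0.14 for Pmp22, 2.19 for Egr2 and -0.14 for Prx, none past the test. The correlation of Drp2 and Pmp22 was 0.79 with central myelin scaling, where both genes share the divisor. The cause of these changes was not tested. DESeq2 gave no adjusted p for Prx in ALS. No paired analysis was possible because the table columns carry no replicate numbers, so the replicate block was not run. Counts under 10, as for Pmp2, Cldn19 and Egr2 in young and control mice, limit every value of those genes.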
